A study of Mus musculus with 4 samples.

Results

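Described here are 10 genes of ribosome production: the RNA polymerase I subunits Polr1a and Polr1b, the polymerase I factors Ubtf and Rrn3, the box C/D small nucleolar ribonucleoprotein (snoRNP) proteins Fbl, Nop56 and Nop58, and the nucleolar proteins Ncl, Npm1 and Nolc1. They were chosen by symbol from a list of textbook components. No measured value was a criterion, but earlier results of these data were known when the choice was made. Their transcripts were summed per symbol in the RefSeq table. All 10 were found among 19797 symbols, and all 10 were among the 12050 genes tested, those with a mean of at least 1 FPKM over the 4 libraries. FPKM is the authors' read count of a transcript scaled by its length and by the read total of the library. All 4 libraries came from the mouse embryonic stem (ES) cell line MC1-ZE7, of strain MC1 (129S6/SvEvTac), in which the fluorescent protein Emerald reports Zscan4, a gene cluster that a small and changing part of an ES culture transcribes. Feeder-free cultures in serum and LIF were sorted into Emerald-positive (Em+) and Emerald-negative (Em-) cells, with 2 total-RNA libraries from each, depleted of ribosomal RNA and stranded. The titles name the Em+ libraries as the Em+ high fraction. The line is a single reporter line, no other treatment or genotype was compared, and the labels do not state whether the libraries of a group came from separate cultures. The p-values therefore speak of the spread between libraries alone, which may be technical. The comparison asks which transcripts differ between the Em+ high fraction and Em- cells, as sorted by the reporter of Zscan4.

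The nucleolus is where RNA polymerase I copies the repeated ribosomal DNA into one long precursor, which is then modified, cleaved and packed with ribosomal proteins into the 2 ribosomal subunits. Polymerase I is recruited by Ubtf, which coats the active repeats, together with the promoter complex SL1, and it can start only when the factor Rrn3 is bound to it. Box C/D snoRNPs, in which a small nucleolar RNA (snoRNA) guides the methyltransferase Fbl on a scaffold of Nop56 and Nop58, methylate and help fold the precursor. ES cells divide fast and are known for prominent nucleoli and a high demand for ribosomes.

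The libraries were not alike in depth or makeup, and Em+ replicate 2 stood apart. RefSeq counts summed to 16468218 in Em+ replicate 2 and to between 17927765 and 18953217 in the other 3 libraries. They made up 43.4% of the reads behind the FPKM in Em+ replicate 2 and 49.0 to 51.1% in the others. Between the libraries of a group, chi-square divided by its degrees of freedom was 35.1 in Em+ and 4.31 in Em-. Summed Zscan4 FPKM was 49.5 and 44.5 in Em+ and 0.451 and 0.547 in Em-, as the titles and the cell type labels have it. The description field of each library gives the other fraction. The 7 ES cell markers summed to 919, 711, 977 and 966 FPKM, and 5 of the 6 fibroblast or feeder markers lay under a mean of 1 FPKM, with Col3a1, Postn and Dcn at 0. The exception was Thy1, at 5.80 and 4.70 FPKM in Em+ and 3.07 and 3.27 in Em-. Markers of primitive endoderm, trophoblast, mesoderm and neural cells summed to between 0.432 and 2.81 FPKM per list and library.

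The 10 genes differed little between Em+ and Em- cells. Polr1a and Polr1b, the catalytic subunits, stood at 1.16 and 1.18 times their Em- level in Em+ cells and Npm1, a nucleolar chaperone, at 0.816 times. The ratios of the other 7 lay between 0.876 (Fbl) and 1.03 (Ncl), and no change of the 10 passed the test. In simulated data this test recovered 4% of genes changed by 0.25 on the log2 scale, so the lack of calls does not show equal levels. With edgeR's quasi-likelihood test and Benjamini-Hochberg adjustment over all genes tested, 0 of the 10 had an adjusted p under 0.05, against 4.64% of all genes tested (559 genes, with 3.82% higher and 0.822% lower in Em+). At an unadjusted p under 0.05 edgeR listed 3 of the 10, Polr1a and Polr1b higher and Npm1 lower in Em+, against 25.3% of all genes. DESeq2 called 1 of the 10, Npm1 (background 5.63%), and limma on log2(FPKM + 1) called 0 (background 2.43%). The fitted log2 fold changes (Em+ over Em-) ran from -0.29 to 0.23 with a median of -0.12, against 0.00 over all genes tested, and 3 lay above 0 and 7 below. In CPM, counts set to a common library total by edgeR's TMM method (TMM-scaled CPM), the groups did not overlap for 9 of the 10. Of these, 3 were higher in Em+ and 6 lower, where the same held for 59.4% of all genes tested, 29.7% in each direction.

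Several of these results rest on an Em+ library. Without Em+ replicate 1, edgeR called 7 of the 10 (Polr1a and Polr1b higher, Npm1, Nolc1, Nop58, Ubtf and Rrn3 lower), but it then called 41.4% of all genes tested. Without Em+ replicate 2 it called 3 of the 10, Npm1 lower and Polr1a and Polr1b higher, with 16.3% of all genes called. In both fits 1 Em+ library is set against 2, and that lone library is assumed to vary as the Em- libraries do. Without either Em- library, 0 of the 10 were called. In bulk RNA, a lower level can come from fewer cells that express a gene or from less RNA per cell, and the 2 cannot be told apart.

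**Figure D1:**
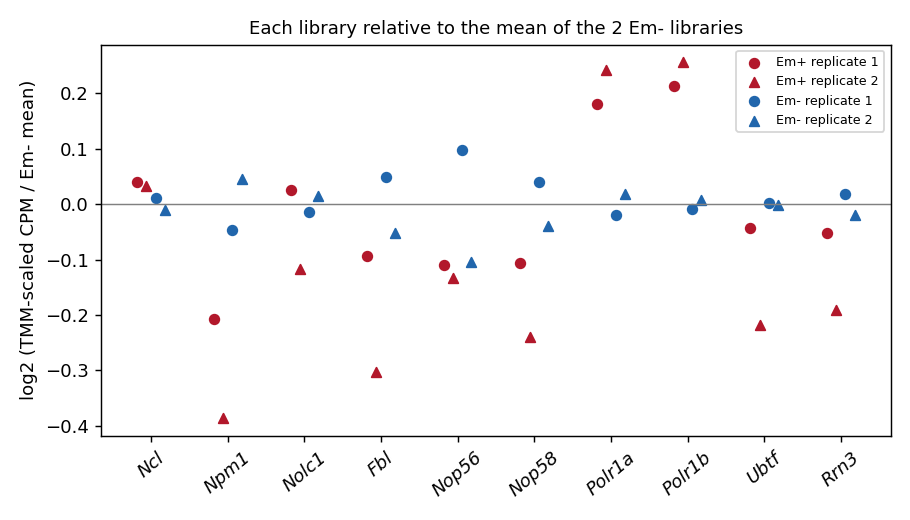
TMM-scaled CPM of each gene in each library, on a log2 scale relative to the mean of the 2 Em- libraries (red, Em+; blue, Em-; circles, replicate 1; triangles, replicate 2). Polr1a and Polr1b lie above 0 in both Em+ libraries, and Npm1 lies below it in both. Em+ replicate 2 is the lowest library for Npm1, Nolc1, Fbl, Nop56, Nop58, Ubtf and Rrn3, and the share over all genes tested was not counted.

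In FPKM of the RefSeq models, the levels of the 10 genes ran from moderately low to among the highest of the genes tested. Compared per length in FPKM, Npm1 came first, followed by Rrn3, Nolc1, Ubtf, Ncl, Nop58, Polr1a, Polr1b, Fbl and Nop56. Npm1 lay above 99.8% of the genes tested and Nop56 above 35.2%. The low place of Nop56 is that of its single RefSeq model, and the known-gene and ENCODE models of this gene took more counts in sum. Over the 4 libraries the FPKM ranges of Nolc1 and Ubtf, of Ubtf and Ncl, of Nop58 and Polr1a, and of Fbl and Nop56 overlapped. Within each library Nolc1 lay above Ubtf and Fbl above Nop56 in 4 of 4 libraries, while Ubtf lay above Ncl and Nop58 above Polr1a in 3 of 4, so the order of the last 2 pairs does not hold beyond the spread of the libraries. The ranges of the other 5 neighbouring pairs did not overlap. The place of Ncl depends on its transcript model, since in the GENCODE annotation its last exon takes up 5978 of 8202 exon bases (72.9%) and FPKM divides by the whole length.

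**Figure D2:**
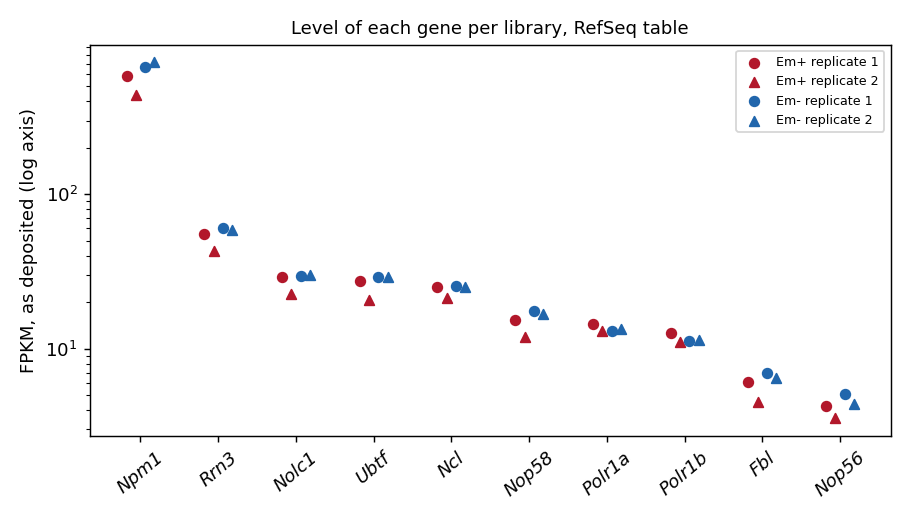
Deposited FPKM of each gene in each library, on a log axis, ordered by mean (red, Em+; blue, Em-; circles, replicate 1; triangles, replicate 2). Npm1 lies at 437 to 714 FPKM, Rrn3 at 43.1 to 60.4, and Fbl and Nop56 lie under 7 FPKM.

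Polr1a encodes the largest subunit of polymerase I, which with the second largest, Polr1b, forms the active site. Polr1a (mm10 chr6:71909053-71979360) was measured at 14.5 FPKM in Em+ replicate 1, 12.9 in Em+ replicate 2, 13.1 in Em- replicate 1 and 13.5 in Em- replicate 2, the order kept below. On this scale, which uses the whole read total of each library, the groups overlapped. Its TMM-scaled CPM stood at 181 and 189 in Em+ and at 158 and 162 in Em-, both Em+ libraries above both Em- libraries. Fitted as a log2 fold change, Polr1a gave 0.21 (SE 0.06, 95% interval 0.07 to 0.36), a ratio of 1.16, with an edgeR adjusted p of 0.101. Left with Em+ replicate 2 alone it was 0.24 (edgeR adjusted p = 0.00147), and with Em+ replicate 1 alone 0.18 (0.0175).

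Polr1b (chr2:129100996-129126595) lay at 12.7 and 11.1 FPKM in Em+ and at 11.2 and 11.4 in Em-, again overlapping. In TMM-scaled CPM the values were 103 and 106 in Em+ and 88.5 and 89.5 in Em-. Both Em+ libraries were above both Em- libraries, and the libraries of each group lay close together. The fit gave Polr1b a log2 fold change of 0.23 (SE 0.06, 95% interval 0.08 to 0.38), a ratio of 1.18, with an edgeR adjusted p of 0.0841, the lowest of the 10. It was 0.26 without Em+ replicate 1 (edgeR adjusted p = 0.00238) and 0.21 without Em+ replicate 2 (0.0153). In the RefSeq table the ratio of Polr1a to Polr1b in FPKM was steady across the libraries, at 1.15, 1.16, 1.17 and 1.18. Polr1a took 3249, 2992, 2869 and 3071 counts there, but 1477, 1490, 1288 and 1409 in the ENCODE table. Polr1b took 1851, 1682, 1610 and 1698 counts in RefSeq and 1321, 1193, 1162 and 1223 in ENCODE. The ratio, and the place of Polr1a among the 10 by level, are therefore values of the RefSeq models.

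The scaling sets where these 2 genes stand. With the library totals behind the FPKM in place of TMM, the median log2 fold change of all genes moved to -0.16, the calls over all genes were 334 higher and 293 lower (460 and 99 under TMM), and Polr1a and Polr1b stood at 0.05 and 0.07. They thus lay above the median of all genes by about as much as under TMM. In the ENCODE and Ensembl transcript tables the log2 fold change of Polr1a was 0.27 and 0.28 and that of Polr1b 0.20 and 0.21, and none of these passed the threshold (adjusted p from 0.128 to 0.170, edgeR).

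Of the 13 tested polymerase I subunits, including those shared with the other polymerases, Polr1a and Polr1b were the 2 with a log2 fold change above 0, and 11 lay below 0. The median was -0.09 and 0 were called, with an unadjusted p under 0.05 for 2 higher and 1 lower. The lowest was Znrd1, a small subunit that takes part in RNA cleavage by the enzyme. Znrd1 stood at 32.4 and 32.6 TMM-scaled CPM in Em+ and at 40.1 and 42.6 in Em-, with both Em+ libraries below both Em- libraries. Its log2 fold change was -0.35 (SE 0.08), with an edgeR adjusted p of 0.0515 that fell under 0.05 in 8 of 18 alternative settings. As a list of another polymerase, 11 polymerase III subunits were taken. This list leaves out the subunits shared with polymerase I, so the medians of the 2 lists come from unlike sets. The 11 had a median of -0.01 with 0 called and 0 at an unadjusted p under 0.05 (edgeR). They ran from Crcp at -0.22 to Polr3a at 0.13. Without Em+ replicate 1 both were called, at -0.34 and 0.18, and without Em+ replicate 2 they stood at -0.11 and 0.091.

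Ubtf, the architectural factor of active ribosomal DNA, lay at 27.3 and 20.6 FPKM in Em+ and at 29.1 and 29.1 in Em- (chr11:102304560-102319096). Scaled by TMM, its CPM was 248 and 219 in Em+ and 255 and 255 in Em-. Both Em+ libraries were lower than both Em- libraries, Em+ replicate 1 by little and replicate 2 by more. For Ubtf the log2 fold change was -0.13 (SE 0.08, 95% interval -0.30 to 0.05; edgeR adjusted p = 0.328), with -0.04 when Em+ replicate 2 was left out and -0.22 when Em+ replicate 1 was. In the RefSeq table nearly all its reads were assigned to 1 of 2 models. The same model took only 7, 6, 7 and 4 counts in the known-gene table, so the assignment depends on which models are listed and does not name a main transcript.

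Rrn3 (chr16:13780699-13814841), which joins polymerase I to its promoter, was the second most abundant of the 10 in FPKM, at 55.6 and 43.1 in Em+ and 60.4 and 59.0 in Em-. Its TMM-scaled CPM of 408 and 371 in Em+ and 429 and 418 in Em- placed both Em+ libraries lower. For Rrn3 the log2 fold change was -0.12 (SE 0.07, 95% interval -0.29 to 0.05; edgeR adjusted p = 0.342). Leaving out Em+ replicate 2 gave -0.054, and leaving out Em+ replicate 1 gave -0.19.

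The list of 11 polymerase I initiation, termination and ribosomal DNA chromatin factors had 8 log2 fold changes above 0 and 3 below, a median of 0.06 and 0 calls, with an unadjusted p under 0.05 for 2, both higher (edgeR). Ubtf was the lowest. The highest was Baz2a, a subunit of a remodelling complex known to silence ribosomal DNA repeats, at 0.44 (SE 0.15, edgeR adjusted p = 0.127). Baz2a stood at 335 and 476 TMM-scaled CPM in Em+ and at 299 and 298 in Em-. Em+ replicate 2 was far above the other 3 libraries, and the value was 0.16 when it was left out and 0.68 when Em+ replicate 1 was. Baz2a was called in 4 of 18 alternative settings, these 2 and DESeq2 among them.

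Among the 8 member genes with a promoter entry in the RefSeq table, only Rrn3 had CACGTG in its promoter. CACGTG is the core E-box that dimers of Myc and Max bind. Npm1 and Fbl had no promoter entry and were not scanned, and Ubtf had several entries. The Rrn3 promoter is shown because Myc proteins are textbook regulators of ribosome production. Windows ran from 250 bases before to 50 bases after each start, and CACGTG, which reads the same on both strands, occurred in 7.15% of all 32851 windows and at least 2 times in 0.594%. The Rrn3 window held it at positions -215 and -48 from the start. The 250 bases upstream of Rrn3 (GRCm38.p6 chr16:13780449-13780698, + strand, RefSeq), with CACGTG in capitals, read as follows.
Rrn3 upstream: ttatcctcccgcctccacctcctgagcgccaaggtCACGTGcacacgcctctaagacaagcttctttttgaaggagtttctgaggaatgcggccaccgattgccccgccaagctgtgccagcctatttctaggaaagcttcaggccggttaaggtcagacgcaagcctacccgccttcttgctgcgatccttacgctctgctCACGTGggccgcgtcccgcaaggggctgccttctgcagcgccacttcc
A match is a description of the letters, and no binding was measured here. Of the 9 tested Myc network transcription factors, 0 were called higher and 1 lower, Mycn. Mycn stood at 155 and 147 TMM-scaled CPM in Em+ and at 199 and 189 in Em-, both Em+ libraries below both Em- libraries. The log2 difference of Mycn was -0.36 (SE 0.07; adjusted p = 0.0252, edgeR), and leaving out Em- replicate 1 (0.297) or Em- replicate 2 (0.0950) ended the call, at log2 differences of -0.33 and -0.40. It was also lost with both limma settings (adjusted p of 0.175 and 0.185) and at a mean FPKM of at least 5 (0.0537), and it held in 13 of 18 alternative settings. The highest of the list was Mxd4 at 0.26 (edgeR adjusted p = 0.418), with 0.076 when Em+ replicate 1 was left out and 0.40 when Em+ replicate 2 was, and Myc itself lay below the filter.

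Fbl, the methyltransferase of box C/D snoRNPs, was among the lower-level genes of the 10 (chr7:28169748-28179269). It was measured at 6.09 and 4.48 FPKM in Em+ and at 6.94 and 6.49 in Em-, from 258, 197, 289 and 281 counts. The TMM-scaled CPM stood at 14.4 and 12.4 in Em+ and at 15.9 and 14.8 in Em-. Both Em+ libraries lay below both Em- libraries, with Em+ replicate 1 just below Em- replicate 2. For Fbl the log2 fold change was -0.19 (SE 0.12, 95% interval -0.47 to 0.09; edgeR adjusted p = 0.352), with -0.095 when Em+ replicate 2 was left out and -0.30 when Em+ replicate 1 was (0.0799).

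Nop58 (chr1:59685006-59711510), a scaffold protein of the same particle, lay at 15.4 and 11.9 FPKM in Em+ and at 17.6 and 16.7 in Em-. Its TMM-scaled CPM was 61.9 and 56.5 in Em+ and 68.5 and 64.8 in Em-, so that both Em+ libraries were lower. The log2 fold change was -0.17 (SE 0.08, 95% interval -0.36 to 0.02; edgeR adjusted p = 0.245). Leaving out Em+ replicate 2 gave -0.11, and leaving out Em+ replicate 1 gave -0.24, where edgeR called it (adjusted p = 0.0101).

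Nop56 (chr2:130274412-130279313), the partner of Nop58, had the lowest level of the 10 in the RefSeq table, at 4.24 and 3.55 FPKM in Em+ and 5.06 and 4.41 in Em-. In TMM-scaled CPM it was 16.4 and 16.1 in Em+ and 18.9 and 16.4 in Em-. Em- replicate 1 was the highest, and the other 3 libraries lay together, with Em+ replicate 1 just under Em- replicate 2. The log2 fold change was -0.12 (SE 0.11, 95% interval -0.39 to 0.14; edgeR adjusted p = 0.532), with -0.020 when Em- replicate 1 was left out and -0.22 when Em- replicate 2 was.

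The level of Nop56 depends on which transcript models were counted. The single RefSeq model took 294, 255, 344 and 312 counts in the same order of libraries. The 2 known-gene models took 1108, 1070, 1149 and 1121 counts, and the 18 ENCODE models took 9404, 7653, 9402 and 9319 in sum, where a read that matches several models may be counted in each. Models annotated as retained-intron transcripts held 61.3 to 62.5% of the ENCODE counts and the 6 protein-coding models 21.5 to 23.3%. The log2 fold change was -0.01 in the ENCODE table (edgeR adjusted p = 0.944) and turned to 0.072 in the known-gene table (0.618). The FPKM of Nop56, and the ratio of Nop58 to Nop56 of 3.36 to 3.78, are therefore values of the RefSeq model and not of the gene. For the other 9 genes the log2 fold changes of the 4 tables lay at most 0.064 apart.

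Of the 10 box C/D snoRNP core and assembly factors, 2 lay above 0 and 8 below, with a median of -0.15 and 0 called, and 1, lower, had an unadjusted p under 0.05 (edgeR). This was Ruvbl2, an ATPase of the complex that assembles snoRNPs, at -0.26 (SE 0.08, edgeR adjusted p = 0.124), with 191 and 164 TMM-scaled CPM in Em+ and 210 and 214 in Em-. The highest was Znhit3, an assembly factor, at 0.19 (adjusted p = 0.238, edgeR). Leaving out Em+ replicate 2 gave -0.15 for Ruvbl2 and 0.27 for Znhit3, both called, and leaving out Em+ replicate 1 gave -0.37 for Ruvbl2, called, and 0.10 for Znhit3. The 6 genes of the box H/ACA snoRNPs, which guide pseudouridylation, had a median of -0.12 and 0 called, with 1, lower, at an unadjusted p under 0.05 (edgeR), from Nhp2 at -0.25 (edgeR adjusted p = 0.127) to Naf1 at 0.23 (0.359). Both values kept their sign with 1 library left out but moved in size, that of Naf1 to near 0. Naf1 was 0.012 without Em+ replicate 2, 0.43 without Em+ replicate 1, 0.095 without Em- replicate 1 and 0.39 without Em- replicate 2. Nhp2 was -0.15 without Em+ replicate 2, -0.36 without Em+ replicate 1, -0.23 without Em- replicate 1 and -0.28 without Em- replicate 2.

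Introns of Ncl, Nop56 and Nop58 carry snoRNA genes, of which the RefSeq table lists 6, and all 6 passed the filter on level. They are shown because they share a primary transcript with these hosts and 5 of them, the Snord genes, guide the particles that Nop56, Nop58 and Fbl form. Sequences are from the GRCm38 (mm10) genome at the GENCODE M21 coordinates, 5′ to 3′ on the strand of the gene, and capitals mark a TGATGA within the first 20 bases (box C), the last CTGA (box D), or the ACA near the 3′ end of the H/ACA snoRNA Snora75. In Ncl, on the minus strand, lie Snora75 (chr1:86351169-86351301) and Snord82 (chr1:86356261-86356330). In Nop56, on the plus strand, lie Snord110 (chr2:130275506-130275573) and Snord57 (chr2:130278016-130278087), and in Nop58, on the plus strand, Snord70 (chr1:59691934-59692020) and Snord11 (chr1:59704790-59704873). The reads given below were counted over the RefSeq intervals, which are shorter than the sequences printed, with 53 bases against 87 for Snord70 and 116 against 133 for Snora75.
Snora75: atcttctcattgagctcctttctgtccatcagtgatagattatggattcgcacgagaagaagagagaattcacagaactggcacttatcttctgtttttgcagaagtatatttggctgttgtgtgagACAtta
Snord82: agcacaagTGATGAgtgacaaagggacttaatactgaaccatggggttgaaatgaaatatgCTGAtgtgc
Snord110: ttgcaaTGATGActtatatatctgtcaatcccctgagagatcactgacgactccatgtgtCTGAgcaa
Snord57: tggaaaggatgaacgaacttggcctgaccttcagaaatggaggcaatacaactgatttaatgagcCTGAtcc
Snord70: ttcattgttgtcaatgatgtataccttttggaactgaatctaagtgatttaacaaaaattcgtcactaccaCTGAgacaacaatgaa
Snord11: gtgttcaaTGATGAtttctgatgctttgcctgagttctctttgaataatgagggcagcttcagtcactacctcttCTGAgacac
The 5 C/D snoRNAs each held CTGA near the 3′ end, and Snord82, Snord110 and Snord11 held an exact TGATGA near the 5′ end.

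None of the 6 intronic snoRNAs passed edgeR's test, and all 6 had a log2 fold change above 0, from 0.10 to 0.40, against 56 of the 113 snoRNA genes tested. Snord11 had the largest value, with 6.63 and 5.81 TMM-scaled CPM in Em+ and 5.002 and 4.48 in Em-, from 119, 92, 91 and 85 counts. Both Em+ libraries of Snord11 were above both Em- libraries, a log2 difference of 0.40 (SE 0.16, 95% interval 0.03 to 0.77; edgeR adjusted p = 0.175). Its host Nop58 was lower in both Em+ libraries, so Snord11 took 10.7 and 10.3 reads per 100 Nop58 reads in Em+ and 7.30 and 6.91 in Em-. Snord70, in the same host, took 30.3 and 27.9 in Em+ and 23.8 and 24.5 in Em-. Both ratios were higher in both Em+ libraries, and the difference of the ratios was not tested. How often the groups separate in such ratios of other snoRNAs and hosts was not counted, so no separation here is shown to be a trait of these snoRNAs. In TMM-scaled CPM the groups did not overlap for 59.4% of all genes tested.

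Snord57 took 61.2 and 75.3 reads per 100 reads of the Nop56 RefSeq model in Em+ and 50.3 and 59.0 in Em-, while Snord110 took 24.5 and 26.7 in Em+ and 18.9 and 25 in Em-. On this model, which took 255 to 344 counts, the groups did not overlap for Snord57 and overlapped for Snord110. Ratios to the larger Nop56 counts of the known-gene and ENCODE models were not computed. The separation of Snord57 is therefore tied to the RefSeq model and does not stand for the gene. In Ncl, Snora75 took 2.20 and 2.23 in Em+ and 1.93 and 2.30 in Em-, and Snord82 took 3.86 and 3.03 in Em+ and 3.19 and 3.25 in Em-, with overlap for both. Whether these reads came from the mature snoRNA or from unspliced host RNA cannot be told apart, and these snoRNAs are shorter than the library fragments that the protocol states. Over the 113 snoRNA genes 0 were called, with an unadjusted p under 0.05 for 4 higher and 7 lower (edgeR) and a median of -0.01. The highest was Snord118 at 0.82 (edgeR adjusted p = 0.309), a place that rests on Em+ replicate 2, since it was 0.10 without that library and 1.33 and called without Em+ replicate 1. The lowest was Snord53 at -1.75 (0.268), the 1 snoRNA transcript of 116 whose deposited FPKM and count do not match through its listed length, so its count in Em- replicate 1 is unreliable. With 1 library left out, Snord53 ranged from -6.78 to -0.65.

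**Figure D3:**
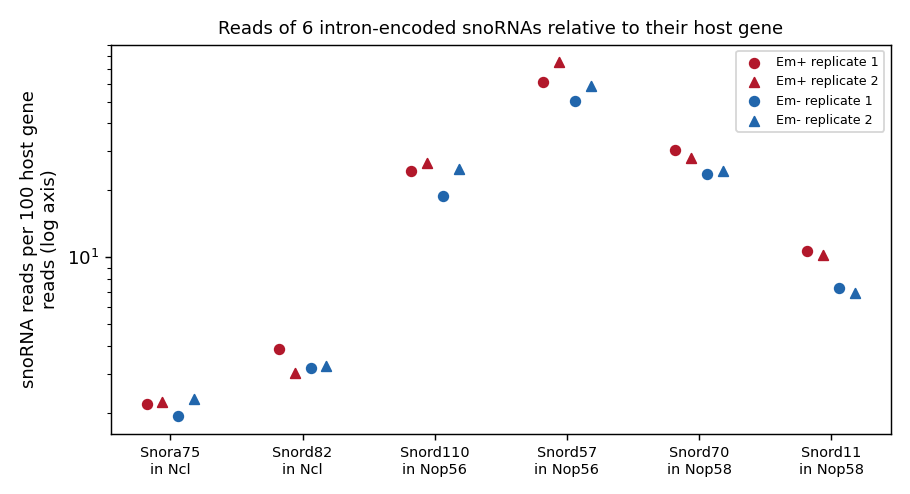
Reads of 6 intron-encoded snoRNAs per 100 reads of their host gene in each library, on a log axis (red, Em+; blue, Em-; circles, replicate 1; triangles, replicate 2). Snord11 and Snord70 lie higher in both Em+ libraries than in both Em- libraries, and the values in Ncl overlap. The share of other snoRNAs and hosts with such a separation was not counted.

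Npm1, a histone chaperone and the main shuttling phosphoprotein of the outer nucleolus, was by far the most abundant of the 10 and had the lowest log2 fold change. Npm1 (chr11:33152498-33163206) was measured at 580 and 437 FPKM in Em+ and at 669 and 714 in Em-. In TMM-scaled CPM it stood at 1645 and 1453 in Em+ and at 1838 and 1959 in Em-. Both Em+ libraries lay below both Em- libraries on both scales. The fit gave Npm1 a log2 fold change of -0.29 (SE 0.10, 95% interval -0.54 to -0.05), a ratio of 0.816, with an adjusted p of 0.143 by edgeR and of 0.0463 by DESeq2. Leaving out Em+ replicate 2 gave -0.21, and leaving out Em+ replicate 1 gave -0.39, and edgeR called it in both cases (adjusted p of 0.00879 and 9.64e-05).

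All 3 RefSeq transcripts of Npm1 had a log2 fold change below 0 when fitted singly, and 0 of the 3 passed edgeR's test, against 5.01% of 12369 transcripts. NM_008722, the most counted, took 23116 and 17623 counts in Em+ and 26508 and 29851 in Em-, with a log2 fold change of -0.34 (adjusted p = 0.110, edgeR). NM_001252261 had -0.14 (0.244) and NM_001252260 -0.26 (0.194). The 4 tables gave -0.29 to -0.31 for the gene. Npm1 made up 49.6% and 47.8% of the summed TMM-scaled CPM of the 10 genes in Em+ and 52.6% and 54.4% in Em-. The sum of the other 9 was 1671 and 1586 in Em+ and 1658 and 1642 in Em-, which overlapped. Npm1 has processed copies elsewhere in the genome, and how reads that match several places were counted is not given in the sources used here.

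Ncl encodes nucleolin, which binds the ribosomal RNA precursor and loosens nucleolar chromatin. Ncl (chr1:86344719-86359455) was measured at 24.97 and 21.17 FPKM in Em+ and at 25.29 and 24.97 in Em-, overlapping, with Em+ replicate 2 the lowest. On the TMM scale its CPM was 420 and 419 in Em+ and 412 and 406 in Em-. The Em+ libraries were higher by a small margin, with a difference of 0.036 on the log2 scale (SE 0.064, 95% interval -0.11 to 0.19; edgeR adjusted p = 0.754). The sign depends on the scaling, with -0.12 under the library totals behind the FPKM and -0.023 with no filter on level.

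Nolc1, a phosphoprotein that accompanies snoRNPs between nucleolus and Cajal body, was the one of the 10 whose groups overlapped in TMM-scaled CPM (chr19:46075847-46085543). It stood at 29.2 and 22.5 FPKM in Em+ and at 29.3 and 30.0 in Em-. In TMM-scaled CPM it was 218 and 197 in Em+ and 212 and 216 in Em-, with Em+ replicate 1 the highest and replicate 2 the lowest. The log2 fold change was -0.04 (SE 0.07, 95% interval -0.21 to 0.12; edgeR adjusted p = 0.736), with 0.025 when Em+ replicate 2 was left out and -0.12 when Em+ replicate 1 was.

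The list of nucleolar chaperones and phosphoproteins had 9 tested genes (Npm2 lay below the filter), with 2 above 0 and 7 below, a median of -0.05 and 0 called. At an unadjusted p under 0.05 it held 2, both lower (edgeR). Npm1 was the lowest, and Tcof1, a polymerase I cofactor, the highest at 0.25 (SE 0.11, edgeR adjusted p = 0.222). Tcof1 stood at 150 and 192 TMM-scaled CPM in Em+ and at 141 and 147 in Em-, with Em+ replicate 2 the highest. Its value was 0.053 without that library and 0.42 and called without Em+ replicate 1 (edgeR adjusted p = 8.66e-05).

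**Figure D4:**
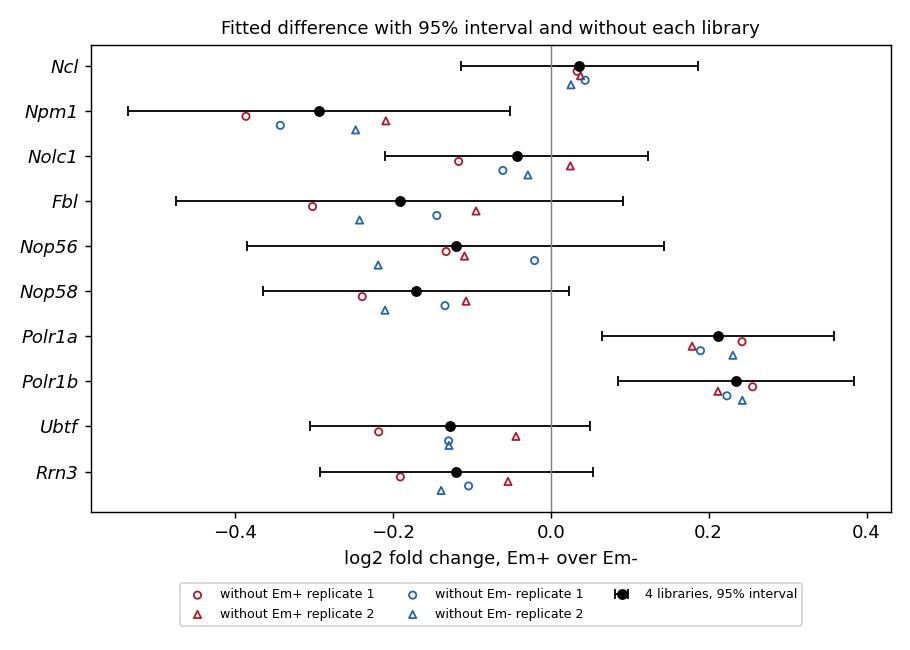
Fitted log2 fold change (Em+ over Em-) of each gene with its 95% interval (black, 4 libraries) and the value with each library left out in turn (open symbols). The intervals of Polr1a and Polr1b lie above 0 and that of Npm1 below it, and these intervals are not adjusted for the number of genes tested.

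Among factors that act on the precursor after polymerase I, 1 gene was called. Of the 46 factors of the small-subunit processome and 40S assembly, 23 lay above 0 and 23 below, with a median of 0.00. Among these, 0 were called, and at an unadjusted p under 0.05 there were 3 higher and 1 lower (edgeR). They ran from Ddx47, a helicase, at -0.27 (edgeR adjusted p = 0.0831) to Nol10 at 0.26 (0.211). Of the 45 assembly factors of the 60S subunit, 22 lay above 0 and 23 below, with a median of -0.03, and 1 was called, higher in Em+. This was Nop2, an RNA methyltransferase of the large subunit, with 146 and 143 TMM-scaled CPM in Em+ and 116 and 116 in Em-. Both Em+ libraries of Nop2 were above both Em- libraries, and the log2 difference was 0.32 (SE 0.06; adjusted p = 0.0303, edgeR). Leaving out Em- replicate 1 or Em- replicate 2 ended the call at an unchanged log2 difference of 0.32, and the call held in 9 of 18 alternative settings. It was also lost with the library totals behind the FPKM, at 0.16 (edgeR adjusted p = 0.536), where the median of all genes was -0.16. With limma on log2(FPKM + 1) the value was 0.15 (limma adjusted p = 0.592). The known-gene, Ensembl and ENCODE tables gave 0.31 each (edgeR adjusted p from 0.0544 to 0.0589), and no filter gave 0.26 (0.0847). The lowest of the list was Gnl3l, a nucleolar GTPase, at -0.21 (adjusted p = 0.144, edgeR). Without Em+ replicate 1, edgeR called Ddx47 (-0.31), Nol10 (0.34) and Gnl3l (-0.28), and without Em+ replicate 2 it called Ddx47 (-0.24) and Gnl3l (-0.14).

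**Figure D5:**
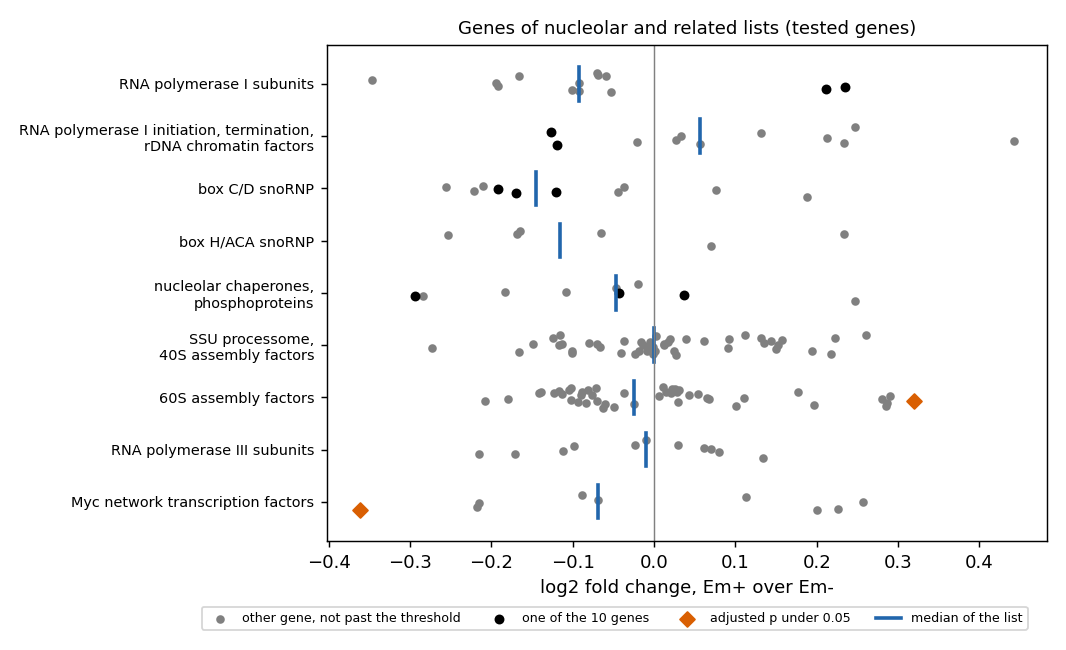
Log2 fold change (Em+ over Em-) of every tested gene of 9 lists (grey, not past the threshold; black, one of the 10 genes; orange diamonds, edgeR adjusted p under 0.05), with the list median as a blue bar. The medians lie between -0.15 and 0.06, and Nop2 and Mycn are the genes past the threshold.

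For the product of polymerase I the entry taken was Rn45s, a RefSeq model of the ribosomal RNA precursor, in libraries from which ribosomal RNA had been depleted. Its reads were not split into precursor and mature ribosomal RNA. The part of the depletion step in its level was not tested, so its values are not a measure of polymerase I activity. Rn45s took 3.93% and 7.95% of the RefSeq counts in the first and second Em+ library and 4.33% and 3.98% in the Em- libraries. Em+ replicate 2 was the highest and Em+ replicate 1 the lowest, so the groups overlapped, with a log2 fold change of 0.55 (SE 0.40; adjusted p = 0.420, edgeR). In the same library, Em+ replicate 2, 7 of the 10 genes were at their lowest in TMM-scaled CPM. The share of all genes tested at their lowest there was not counted, so this is not shown to be a trait of the 10. The part of this library's makeup in those values was not tested. Leaving Rn45s out of the fit left 0 of the 10 called and every log2 fold change of the 10 moved by at most 0.00265.

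The mean centred log2 profile of the 10 genes was 0.02 and -0.07 in Em+ and 0.04 and 0.02 in Em-, lowest in Em+ replicate 2. Among 4544 other genes with a mean of at least 10 FPKM, the 5 nearest to it by Euclidean distance were Marcksl1, Cnpy2, Akap1, Ncapd2 and Tomm70a, at distances of 0.00417 to 0.00774. This mean is nearly flat, because it averages genes that lay higher in Em+ with genes that lay lower, and 1177 genes were within 0.1 of it. Nearness to it therefore says nothing of the profile of a single member.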

How the data were processed

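Per the file headers, the authors deposited 4 transcript tables (RefSeq, known-gene, Ensembl, ENCODE) with a raw count and an FPKM per library. The submitters' processing notes name Bowtie2 and mm10. The sources used here do not give the counting program, the annotation releases or the use of strand, so overlapping genes, antisense genes and copies are uncertain. The count columns of Em- replicate 1 in the RefSeq and Ensembl tables hold only 0, so its counts there were rebuilt from FPKM, transcript length and library total. The same step returned 99.95 to 99.97% of the deposited RefSeq counts of the other libraries exactly, and it equalled the known-gene count for 10 of the 10 member transcripts that could be compared. Groups came from titles. Tests used edgeR 4.0.16 in R 4.3.3 (quasi-likelihood, TMM, two-sided, no covariate, Benjamini-Hochberg over genes averaging 1 FPKM or more, threshold 0.05), tested on simulated data. There, with 50 genes changed at each size, 4% were recovered at a log2 fold of 0.25 and 62% at 0.5. The common biological coefficient of variation was 0.0731. Alternatives used DESeq2 1.42.0, limma 3.58.1, other scalings, filters, tables and left-out libraries. A fit on single transcripts (5.01% of 12369 called) was added after seeing the data. From each list, genes past the threshold and the highest and lowest fold change are named. Members and lists were chosen with earlier results of these data known.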

Additional observations from a re-analysis of the deposited data

How the results depend on the processing

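The count of genes called (559) was 293 and 269 with limma on log2(FPKM + 1) and log2(FPKM + 0.1), 1178 with no filter, 171 at a mean FPKM of at least 5 and 1552 with the replicate block, and from 490 to 4992 with 1 library left out. The count among the 10 genes (0) was 1 with DESeq2 and from 0 to 7 with 1 library left out, and 0 in the remaining alternatives. Replicate numbers are shared between the groups, but the deviations of same-numbered libraries correlated by 0.016 over all genes tested and by 0.168 over those with a mean CPM of at least 50. With 2 pairs, and no label that says a number marks a shared culture or day, whether the numbers pair the samples was not settled. The block called 0 of the 10 genes, with 1090 higher and 462 lower over all genes. Of 179 comparisons of a member's log2 fold change with an alternative, 162 kept direction and side of the threshold, 11 passed it in the same direction, and 6 reversed. Ncl turned to -0.12 with the library totals behind the FPKM, to -0.12 with limma on log2(FPKM + 1), to -0.13 with limma on log2(FPKM + 0.1) and to -0.023 with no filter, against 0.036. Those settings moved the median of all genes to -0.16, -0.14, -0.16 and 0.029. Nop56 turned to 0.072 in the known-gene table. Nolc1 turned to 0.025 without Em+ replicate 2 and ranged from -0.12 to 0.025 with 1 library left out. Nop56 has no value at a mean FPKM of at least 5, where it is not tested. Depth limits Fbl and Nop56 most, at 197 to 344 counts per library. With 1 library in a group, that library is assumed to vary like the other group.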
